A study of Mus musculus with 8 samples.

Results

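The Dlk1-Meg3 imprinted locus of mouse chromosome 12 was followed through 5 of its transcripts, Dlk1, Meg3, Rian, Mirg and Dio3, out of 45706 gene lines used from the deposited count table. The 5 were found by their symbols. They were chosen by their levels in cultured and fresh cells, which were known when the locus was proposed, so those levels are a description here and carry no test. In this locus, protein genes such as Dlk1, Rtl1 and Dio3 are read from the paternal chromosome. A chain of noncoding RNAs, Meg3, Rian and Mirg, is read from the maternal chromosome and carries many small nucleolar RNAs (snoRNAs) and microRNAs in its introns. A differentially methylated region between Dlk1 and Meg3 controls which parental copy is read. DLK1 is a transmembrane protein related to the Notch ligands, and DIO3 is the deiodinase that inactivates thyroid hormone.

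RNA was sequenced from muscle stem cells, which lie along muscle fibres and rebuild them after injury, following 48 h in culture on a hydrogel of 12 kPa (3 libraries) or directly after sorting (5 libraries). All mice were wild-type C57BL/6 females aged 8 to 12 weeks, and the cells were sorted from hindlimb muscle for α7-integrin and CD34 after exclusion of cells with CD45, Sca1, CD31 or CD11b. The growth medium held 20% FBS and 40% each of F-10 and a medium low in glucose. The 3 cultured libraries shared a lane with fresh replicates 4 and 5 (run 2), and fresh replicates 1 to 3 were sequenced apart (run 1). The labels do not say whether libraries came from separate animals or cultures, so the spread between samples may be technical, and p-values measure only that spread. The RNA is bulk, so fewer cells of a type and less RNA per cell cannot be told apart.

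Libraries held 13919586 to 20068189 counts. Genes with at least 1 count numbered 15424 to 17865 in cultured libraries, 20491 and 20909 in fresh libraries of run 2 and 32766 to 34743 in those of run 1. Of 9 muscle stem cell markers, 6 fell in culture, Myod1 rose, and Itga7 and Cd34 did not pass the test, while 18.0% of all tested genes fell and 8.9% rose. Pax7, the transcription factor that defines these cells, was at 77.2 ± 22.2 CPM (counts per 1e6 of the scaled library; mean ± SD, n = 3) in cultured and 1156 ± 280.1 CPM (n = 5) in fresh cells, so none of the groups lacked it. In each library, the summed markers of pericytes and smooth muscle were at 34.6 to 51.4 CPM in cultured and 804 to 3180 CPM in fresh cells. Those of Schwann cells and glia were at 13.2 to 33.7 against 441 to 2015 CPM. Fibro-adipogenic markers summed to 24.7 to 35.8 against 1065 to 1636 CPM, and tenocyte markers to 4.62 to 15.6 against 40.0 to 425 CPM. Endothelial markers summed to 1.69 to 46.9 against 93.4 to 136 CPM, blood markers to 0.254 to 5.90 against 27.0 to 75.0 CPM, and muscle fibre markers to 11.1 to 77.4 against 28.9 to 33.1 CPM.

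The sequences at the starts of Dlk1 and Meg3 are shown because these starts flank the imprinting control region and give the first RNA of each parental side. Both windows are from RefSeq on GRCm38.p6 and run from 250 bases before to 50 after the start, on the plus strand. The Dlk1 window is chr12:109452573-109452872 and the window of the first of 2 Meg3 starts is chr12:109540746-109541045. Capitals mark matches, on either strand, to any of 6 motifs. These were TGACGTCA (the cyclic AMP response element), the TATA box as TATAAA, the GC box as GGGCGG, the E-box of myogenic factors as CAGCTG, the hexamer that the imprint factor ZFP57 binds when methylated, TGCCGC, and the CCAAT box.
Dlk1 start: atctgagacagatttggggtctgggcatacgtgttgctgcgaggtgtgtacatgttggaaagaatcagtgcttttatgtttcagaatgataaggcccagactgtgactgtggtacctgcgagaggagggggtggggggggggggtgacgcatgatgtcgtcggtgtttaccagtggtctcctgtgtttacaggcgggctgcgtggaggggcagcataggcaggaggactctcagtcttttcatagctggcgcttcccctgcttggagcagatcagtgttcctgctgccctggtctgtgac
Meg3 start: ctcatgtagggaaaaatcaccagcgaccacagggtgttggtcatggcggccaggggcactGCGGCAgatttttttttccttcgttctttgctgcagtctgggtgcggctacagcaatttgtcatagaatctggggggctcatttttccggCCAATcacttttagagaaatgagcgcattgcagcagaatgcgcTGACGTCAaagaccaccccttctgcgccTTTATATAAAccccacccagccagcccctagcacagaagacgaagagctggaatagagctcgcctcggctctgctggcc

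The Meg3 window held 1 TGACGTCA, 1 TGCCGC (as GCGGCA on the printed strand), 1 CCAAT and 2 overlapping TATAAA on opposite strands. The Dlk1 window held none of the 6 motifs, nor did that of the second Meg3 start (chr12:109545148-109545447), which had 1 CpG. Over 32851 RefSeq promoter windows of this length, TGACGTCA was in 1.79%, TGCCGC in 11.6%, TATAAA in 13.6%, CAGCTG in 16.3%, GGGCGG in 35.7% and CCAAT in 37.4%. The Meg3 window had 13 CpG and 53.7% GC and the Dlk1 window 9 CpG and 55.7% GC, against a median of 7 CpG and 52.7% GC over all windows. The Dio3 window had 25 CpG and the window at the start of Rian 0.

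Inside Rian, 13 snoRNA genes are annotated, and 7 of them have TGATGA within 15 bases of the start and CTGA within 15 bases of the end, the letters of the C and D boxes of such RNAs. The 2 snoRNA lines of Rian with the most counts are shown, in DNA letters of the GENCODE M21 transcripts, with the boxes found in capitals. Gm24564 spans chr12:109631074-109631148 and AF357425 spans chr12:109636012-109636084, both on the plus strand.
Gm24564: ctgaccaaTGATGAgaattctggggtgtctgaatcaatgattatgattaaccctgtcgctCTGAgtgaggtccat
AF357425: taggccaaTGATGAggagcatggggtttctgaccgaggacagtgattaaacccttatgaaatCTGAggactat

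The RefSeq hairpin records used place 58 microRNA hairpins between Begain and Dio3. Of these, 54 are on the plus strand, the strand of Meg3, Rian and Mirg. Of the 58, 24 lie between Rian and Mirg, 15 between Meg3 and Rian, 14 inside Mirg, 3 inside Rian and 1 inside Meg3. The records of mature sequences give 113 in the same span, with 104 different seeds (bases 2 to 8). Some come from hairpins without a record of their own, since both Mir1906-1 and Mir770 have mature sequences inside Meg3. The seeds include 9 that are each carried by a pair of mature microRNAs of the domain. Mature microRNAs were not measured in these libraries, and 4 such pairs are shown as examples of seeds shared within the domain, with the seed in capitals.
mmu-miR-379-5p: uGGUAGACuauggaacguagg
mmu-miR-1193-5p: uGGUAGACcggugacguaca
mmu-miR-379-3p: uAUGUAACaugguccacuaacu
mmu-miR-411-3p: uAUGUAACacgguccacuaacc
mmu-miR-376b-5p: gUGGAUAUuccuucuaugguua
mmu-miR-376c-5p: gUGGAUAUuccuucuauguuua
mmu-miR-410-5p: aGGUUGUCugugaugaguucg
mmu-miR-494-5p: aGGUUGUCcguguugucuucuc

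All of these pairs share bases 2 to 8 and differ in bases farther along. Apart from miR-410, which lies inside Mirg, their hairpins lie between Rian and Mirg.

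The noncoding RNAs of the maternal side were far lower after 48 h of culture than in fresh cells. Meg3 and Rian were still counted in every cultured library, and Mirg was near the detection limit. Meg3 (ENSMUSG00000021268, chromosome 12, 109541001 to 109571726, plus strand), a nuclear long noncoding RNA, was at 7.78, 3.03 and 2.08 CPM in cultured replicates 1 to 3. In fresh replicates 1 to 5 it was at 578, 701, 462, 809.7 and 901 CPM. The highest cultured library lay far below the lowest fresh library, with means of 4.30 ± 3.05 CPM in cultured and 690.3 ± 176 CPM in fresh cells (SD, n = 3 and 5, as for all levels below). Its log2 fold change in cultured over run-2 fresh cells was -7.64 ± 0.57 (SE of the edgeR fit), and the run-2 fresh mean was 199 times the cultured mean. The counts behind these levels were 148, 59 and 41 in cultured libraries and 7733 to 13872 in fresh ones. Without cultured replicate 1, which held most of the cultured counts, the log2 fold change was -8.32.

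Rian (ENSMUSG00000097451, chromosome 12, 109603940 to 109661716, plus strand), the host RNA of the snoRNA cluster, was at 2.21, 0.103 and 3.15 CPM in cultured replicates 1 to 3. It was at 205, 262, 288, 534 and 545 CPM in fresh replicates 1 to 5. The groups were apart here too, and fresh cells fell into a lower trio of run 1 and a higher pair of run 2. Means were 1.82 ± 1.56 CPM in cultured and 367 ± 160.5 CPM in fresh cells, and the log2 fold change in cultured over run-2 fresh cells was -8.21 ± 0.93. The 3 cultured libraries differed among themselves, with 42, 2 and 62 counts, and the log2 fold change was -7.63 when cultured replicate 2 was left out and -8.89 when cultured replicate 3 was.

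Mirg (ENSMUSG00000097391, chromosome 12, 109729764 to 109749460, plus strand), which hosts microRNAs at the far end of the chain, had 0, 0 and 1 count in cultured replicates 1 to 3. In fresh replicates 1 to 5 it had 334, 608, 569, 418 and 472 counts, or 18.97, 40.5, 34.0, 26.3 and 30.7 CPM. Fresh libraries of both runs thus lay in the same range, and all were far above the cultured ones. The level in run-2 fresh cells exceeded that in cultured cells by a ratio of 1656, with a 95% counting interval of 296 to 65470. All of the cultured signal was the 1 count of cultured replicate 3, and without that library Mirg was at least 364-fold lower in cultured cells (against 3 counts over the cultured libraries).

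Of the paternal protein genes, Dlk1 and Dio3 had low levels in fresh cells and no count in culture. Dlk1 (ENSMUSG00000040856, chromosome 12, 109452823 to 109463336, plus strand) had 0 counts in all 3 cultured libraries. It had 77, 93, 55, 231 and 112 counts in fresh replicates 1 to 5, or 4.37, 6.19, 3.29, 14.5 and 7.28 CPM. No fresh library was at 0, and fresh replicate 4 was the highest. A count of 0 allows up to 3 counts over the 3 cultured libraries, or 0.0516 CPM, so Dlk1 was at least 212-fold lower in cultured than in run-2 fresh cells and at least 89.6-fold lower than in run-1 fresh cells. Without fresh replicate 4 the bound against run 2 was 137-fold, and without any 1 of the cultured replicates it was 137-fold to 140.1-fold.

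Dio3 (ENSMUSG00000075707, chromosome 12, 110279068 to 110281097, plus strand) had 0 counts in all cultured libraries, and 7, 5, 6, 0 and 0 counts in fresh replicates 1 to 5. The cultured libraries and the fresh libraries of their own run were therefore alike at 0, and no fold was computed between them. Against run-1 fresh cells, at 0.398, 0.333 and 0.359 CPM, Dio3 was at least 7.04-fold lower in cultured cells, a comparison in which culture and sequencing run cannot be told apart. Run-1 libraries also detected the most genes.

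**Figure D1:**
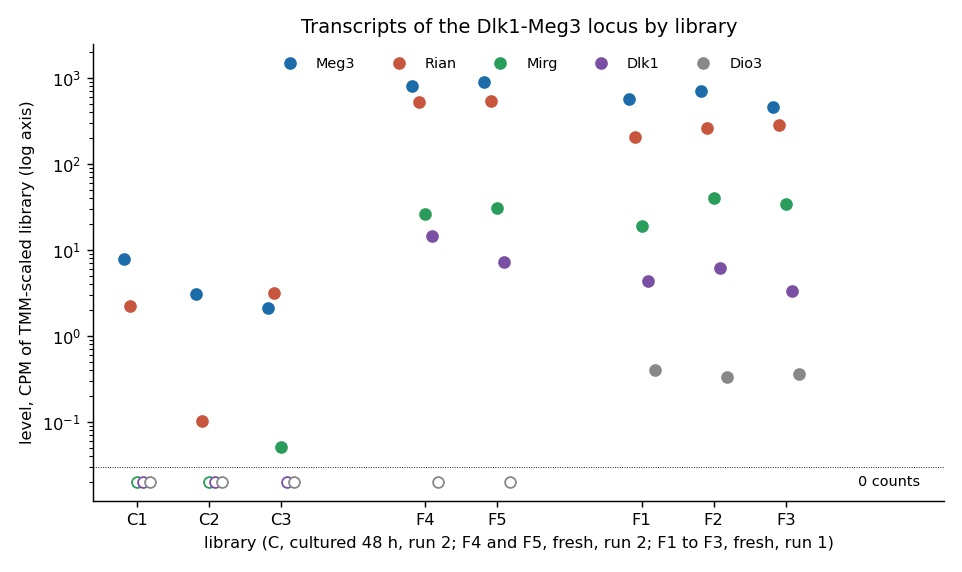
Level of each of the 5 transcripts in each library, in CPM on a log axis, with cultured libraries left, run-2 fresh libraries in the middle and run-1 fresh libraries right. Open circles below the dotted line stand for 0 counts. Meg3, Rian, Mirg and Dlk1 have no cultured point within the range of the fresh points, and Dio3 is at 0 in all run-2 libraries.

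Of the 5 transcripts, 4 passed the filter on low counts, and each of these 4 had all cultured libraries below all fresh libraries. So had 26.1% of the 19054 genes tested, of which 26.9% were called in either direction and 18.0% were called lower in culture at an adjusted p under 0.05 (edgeR quasi-likelihood test with Benjamini-Hochberg adjustment). The 4 were among those called lower, and since this comparison chose them, nothing is read from that count. A log2 fold change below -7 was found for 1331 genes (6.99%), and 5.34% of genes had a lower one than Meg3 and 4.10% than Rian. Among all tested genes 1695 rose (8.9%) and 3432 fell, with a median log2 fold change of -0.21. With library totals alone in place of scaling factors, 2450 rose and 2857 fell, and the median was 0.03, a shift of 0.24.

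The comparison of fresh cells between runs was not used to choose the members, and it can be tested. Rian averaged 539.6 ± 7.55 CPM in run-2 and 252 ± 42.1 CPM in run-1 fresh cells (SD, n = 2 and 3), a log2 fold change of 1.10 ± 0.72. Its adjusted p was 0.590 in the edgeR quasi-likelihood test, which called 36 genes between runs (0.189%), 18 in each direction (0.0945%). In a fit of the fresh libraries alone, which called 799 genes, the log2 fold change of Rian was 1.05 and its adjusted p 0.0260. With DESeq2 on all libraries Rian was at 1.09 (adjusted p = 0.645). Meg3 differed by 0.56 ± 0.46 (adjusted p = 0.712), Dlk1 by 1.24 ± 0.90 (adjusted p = 0.661) and Mirg by -0.13 ± 0.62 (adjusted p = 0.980), all in edgeR. None of these 3 passed the test in either edgeR fit or with DESeq2.

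Levels of different transcripts were set beside each other per kilobase of merged exons. In cultured cells Meg3 was at 0.237 ± 0.169, Rian at 0.0998 ± 0.0856 and Mirg at 0.00232 ± 0.00402 CPM per kilobase. Between cultured libraries Meg3 and Rian overlapped, and Rian lay above Meg3 in cultured replicate 3 (0.173 against 0.115). Rian and Mirg overlapped too, with Mirg at 0.00697 in cultured replicate 3 and Rian at 0.00563 in cultured replicate 2. In fresh cells the level per kilobase was 38.2 ± 9.71 for Meg3, 20.1 ± 8.80 for Rian, 4.13 ± 1.11 for Mirg, 1.26 ± 0.782 for Dlk1 and 0.107 ± 0.0986 for Dio3. Within each fresh library the order was Meg3, Rian, Mirg, Dlk1 and Dio3. Neighbours in this order did not overlap between fresh libraries except Meg3 and Rian, where Meg3 in fresh replicate 3 (25.6) lay below Rian in fresh replicates 4 and 5 (29.3 and 29.9).

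The proportions of the RNAs of the maternal chain are given as a description, without a test, and the cultured ones rest on few counts. In counts, Rian was at 28.4, 3.39 and 151 per 100 counts of Meg3 in cultured replicates 1 to 3, and at 35.5, 37.4, 62.2, 66.0 and 60.5 in fresh replicates 1 to 5. The cultured libraries thus lay on both sides of all fresh ones, on 41 to 148 counts of Meg3 and 2 to 62 counts of Rian in each. Mirg was at 0, 0 and 1.61 per 100 counts of Rian in cultured libraries, against 9.24, 15.4, 11.8, 4.93 and 5.63 in fresh ones. With 2 counts of Rian, cultured replicate 2 could hardly have shown Mirg at any fresh share. No change of proportion is read from these few counts. In fresh cells the share of Mirg against Rian was lower in both run-2 libraries than in all run-1 libraries.

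**Figure D2:**
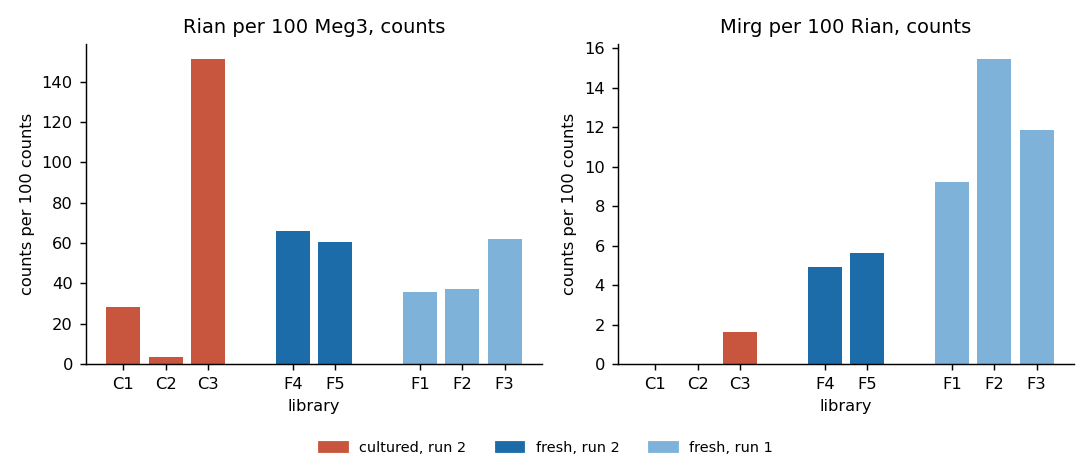
Counts of Rian per 100 counts of Meg3 (left) and of Mirg per 100 counts of Rian (right) in each library, with cultured bars left and fresh bars right of them. Cultured bars for Rian range from 3.39 to 151, outside the fresh range of 35.5 to 66.0, and Mirg is absent from cultured replicates 1 and 2. The cultured bars rest on 2 to 62 counts of Rian in each library.

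Between Begain and Dio3 the annotation holds 101 other lines, mostly microRNA and snoRNA genes, and counts were nearly confined to fresh cells. Summed over these lines, cultured replicates 1 to 3 had 4, 2 and 3 counts, and fresh replicates 1 to 5 had 1989, 1931, 2574, 3328 and 2924. Of the 101 lines, 36 were at 0 in every library, 65 had counts in fresh cells and 4 had counts in cultured cells. The 68 microRNA lines had 0 counts in cultured and 269 in fresh libraries, and the 23 snoRNA lines had 1 and 148. Of these lines 7 passed the filter, through their fresh counts alone, with at most 3 counts in any cultured library. They could thus only be lower in culture, and nothing is read from the 6 that were called lower, beside 18.0% of all tested genes. Reads on these lines were counted without a stated strand, so they cannot be told apart from reads of overlapping or opposite genes.

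Rtl1, the paternally expressed retrotransposon-like gene, had 0, 2 and 0 counts in cultured replicates 1 to 3 and 234, 347, 260, 376 and 543 counts in fresh replicates 1 to 5. The run-2 fresh level was 855 times the cultured level, with a counting interval of 236 to 7070. A maternal RNA is known to run antisense to Rtl1, and reads of both would fall on this line. Gm37899, an unnamed transcript between Rian and Mirg, had 1, 0 and 2 counts in cultured and 749 to 1780 in fresh libraries, a ratio of 2087 (714 to 10120). B830012L14Rik, a noncoding RNA in the same interval, had 3, 0 and 0 counts in cultured and 402 to 693 in fresh libraries, a ratio of 677 (231 to 3289). The fitted log2 fold change was -9.47 for Rtl1 (-11.98 without cultured replicate 2), -10.84 for Gm37899 (-11.66 without cultured replicate 3) and -9.20 for B830012L14Rik (-12.21 without cultured replicate 1).

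Gm26945, which lies within Rian on the same strand, had no count in cultured libraries and 35, 60, 69, 388 and 138 counts in fresh replicates 1 to 5, so it was at least 324-fold lower. The snoRNA Gm24564, whose sequence is given above, had 0, 0 and 1 count in cultured and 10, 24, 14, 26 and 6 in fresh libraries, a ratio of 59.5 (9.95 to 2424). It was named after its values were seen, to complete the count of 6. The fitted log2 fold change of Gm26945 was -11.18, and -10.28 or -11.76 on leaving out fresh replicate 4 or 5. Begain, the gene at the near end of the domain, had no count in cultured libraries and 40, 41, 20, 7 and 208 in fresh ones, and was at least 135-fold lower, with most of its run-2 counts in fresh replicate 5. Its log2 fold change from the fit was -9.92, and -10.88 or -5.99 on leaving out fresh replicate 4 or 5. Gm26906, which overlaps the end of Meg3 on the opposite strand, had 0 counts in cultured libraries and 184, 124, 119, 0 and 0 in fresh ones. It was thus detected in run 1 alone, and its difference between fresh runs had an adjusted p of 0.0604 (edgeR).

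**Figure D3:**
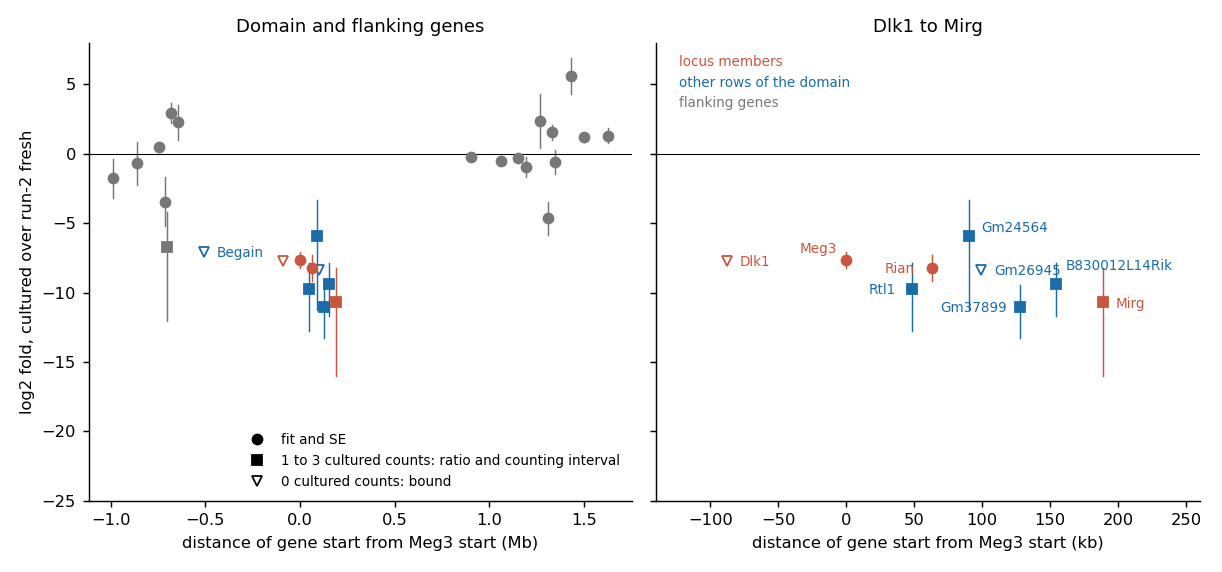
Log2 fold in cultured over run-2 fresh cells against the distance of each gene's start from that of Meg3, in megabases for the domain and its flanks (left) and in kilobases for the stretch from Dlk1 to Mirg (right). Red marks are members other than Dio3, blue marks other lines of the domain and grey marks flanking genes. Circles are fitted values with SE, squares are ratios with their counting interval and open triangles are bounds, which the true fold lies below. All marks of the domain lie below -5, and flanking genes lie on both sides of 0. Gm26906, at 0 in cultured and run-2 fresh libraries, has no mark.

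Of 18 flanking genes outside the domain, all tested, 3 rose, 2 fell and 13 did not pass the test, beside 26.9% of all tested genes called in either direction, with a median log2 fold change of -0.26 (0.13 without scaling factors). Wars, the cytosolic tryptophanyl-tRNA synthetase, rose to 126 ± 89.0 CPM in cultured cells, against 17.8 ± 6.08 CPM in fresh cells (log2 fold change 2.96 ± 0.71; adjusted p = 0.01495, edgeR). Rcor1, a corepressor subunit, rose to 98.6 ± 24.4 CPM, against 54.4 ± 12.0 CPM (1.17 ± 0.32; adjusted p = 0.0255, edgeR). Chosen after their values were seen, the rest of these calls were Ankrd9, which rose, and Zfp839 and Slc25a47, which fell. The call of Wars was lost without fresh replicate 5 (adjusted p = 0.108) and on run 2 alone (0.0506), and its log2 fold change was 3.70 without fresh replicate 4 and 2.33 without cultured replicate 1. The call of Rcor1 was lost without fresh replicate 4 or 5 or cultured replicate 2 (0.0892, 0.134 and 0.0542), without a filter (0.0589), on run 2 alone (0.0790) and against run-1 fresh cells (0.0728).

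The counts of the gene lists that follow stand beside 8.9% of all tested genes that rose and 18.0% that fell. These lists, and the flanking genes above, were chosen with earlier results of these data known. Their counts, calls and p-values are therefore a description and no independent support. Listed genes with hardly any cultured counts passed the filter through fresh counts alone and could only be called lower. Of the Notch pathway genes related to Dlk1, and proteins tied to it, none rose and 4 of 10 tested fell, with a median log2 fold change of -1.09. Notch3, a receptor also expressed by pericytes, fell to 15.01 ± 10.8 CPM in cultured cells, against 389.8 ± 83.9 CPM in fresh cells (-4.61 ± 0.59; adjusted p = 0.00116, edgeR). Jag1, a Notch ligand, fell to 17.1 ± 5.85 CPM, against 65.4 ± 16.8 CPM (-2.20 ± 0.40; adjusted p = 0.00514, edgeR). The receptor Notch2 fell to 272 ± 27.7 CPM, against 476 ± 81.2 CPM (-0.94 ± 0.23; adjusted p = 0.0177, edgeR). The ligand Dll1, named to complete the count after its values were seen, was the fourth. The call of Notch2 was lost without scaling factors (adjusted p = 0.133), without fresh replicate 4 (0.0954) or 5 (0.0812) and against run-1 fresh cells (0.0505), and Notch3 was at -5.25 without cultured replicate 1. Summed pericyte markers, which include Notch3, moved the same way, and their part in these values was not tested.

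Of 20 tested genes that handle thyroid hormone, the substrate of DIO3, 12 fell, 2 rose and 6 were not called, beside 18.0% and 8.9% of all tested genes that fell and rose, and their median log2 fold change was -2.32. Dio2, the deiodinase that activates the hormone, fell to 1.98 ± 2.21 CPM in cultured cells, against 79.7 ± 31.3 CPM in fresh cells (-5.77 ± 1.01; adjusted p = 0.00466, edgeR). Leaving out cultured replicate 1 or 2 gave a log2 fold change of -5.15 or -7.09 for Dio2. Slc7a8, an amino acid transporter that also carries thyroid hormone, had 0, 2 and 1 counts in cultured and 2803 to 4785 counts in fresh libraries. For Slc7a8 the ratio of run-2 fresh over cultured cells was 3900, and the fitted log2 fold change was -11.74, and -12.56 without cultured replicate 2. Ncoa1, a coactivator of nuclear receptors, fell to 53.6 ± 23.5 CPM, against 526 ± 99.4 CPM (-3.51 ± 0.36; adjusted p = 0.000444, edgeR). Thrsp, a hormone-responsive gene of lipid synthesis, had no cultured count and was at least 301-fold lower than in run-2 fresh cells. Slc7a8 and Thrsp passed the filter through their fresh counts alone and could only be lower, so nothing is read from their calls. The receptor genes Thra and Thrb were among those that fell, and the transporter gene Slc7a5 and the mediator subunit gene Med1 were the 2 that rose. These 4 were named after their values were seen.

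Among genes of imprint control and DNA methylation, 3 of 14 tested rose and 5 fell, with a median log2 fold change of 0.32. Uhrf1, the factor that brings the maintenance methyltransferase to replicated DNA, rose to 62.3 ± 29.8 CPM in cultured cells, against 0.979 ± 1.16 CPM in fresh cells (7.30 ± 1.48; adjusted p = 0.00771, edgeR). The dioxygenase gene Tet1 fell to 3.97 ± 5.36 CPM, against 58.5 ± 13.6 CPM (-4.11 ± 0.99; adjusted p = 0.0158, edgeR). Its relative Tet2 fell to 73.2 ± 10.7 CPM, against 413 ± 63.2 CPM (-2.68 ± 0.23; adjusted p = 0.000186, edgeR). Aff3, a factor that in mouse stem cells binds the control region of this locus, was at 0.120 ± 0.165 CPM, against 34.2 ± 13.6 CPM (-7.72 ± 1.03). With so few cultured counts, Aff3 passed the filter through fresh counts alone and could only be lower, so nothing is read from its call. The other calls, named after their values were seen, were Trim28 and Dnmt1, which rose, and Dnmt3a and Tet3, which fell. The call of Tet1 was lost without fresh replicate 4 (adjusted p = 0.0557) or 5 (0.0656) and on run 2 alone (0.0662), and its log2 fold change was -6.26 without cultured replicate 2. That of Uhrf1 was 6.49 and 9.82 on leaving out fresh replicate 4 or 5 in turn, and that of Aff3 was -9.65 and -7.11 on leaving out cultured replicate 2 or 1 and -7.10 without fresh replicate 4.

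The PRC2 and MEF2 genes, whose products are tied to Meg3 RNA and to the Meg3 promoter in other work, gave 4 higher, 3 lower and 4 not called of 11 tested, with a median of 0.39. Jarid2, a PRC2 partner, fell to 13.2 ± 9.64 CPM in cultured cells, against 151 ± 51.0 CPM in fresh cells (-3.91 ± 0.64; adjusted p = 0.00361, edgeR). Mef2c was at 0.0847 ± 0.147 CPM, against 20.5 ± 11.6 CPM (-7.18 ± 1.31). With so few cultured counts, Mef2c passed the filter through fresh counts alone and could only be lower, so nothing is read from its call. Ezh1, the enzymatic subunit typical of resting cells, fell to 23.9 ± 8.77 CPM, against 100.1 ± 29.8 CPM (-1.51 ± 0.34; adjusted p = 0.0114, edgeR), and the core subunit gene Eed rose to 86.3 ± 25.3 CPM, against 22.4 ± 7.76 CPM (1.60 ± 0.44; adjusted p = 0.0271, edgeR). On run 2 alone the calls of Mef2c (adjusted p = 0.0532), Ezh1 (0.0767) and Eed (0.0523) were lost. Without fresh replicate 5 those of Ezh1 (0.0642) and Eed (0.0752) were lost, and Eed also without fresh replicate 4 (0.149) or cultured replicate 3 (0.0535). Leaving out cultured replicate 3 or 1 put Mef2c at -10.85 or -6.58, and Jarid2 was at -4.50 without cultured replicate 3.

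Of 14 genes of microRNA biogenesis, which process hairpins such as those of the domain, 3 rose, 2 fell and 9 were not called, beside 8.9% that rose and 18.0% that fell over all tested genes, with a median of 0.24. Ran, the GTPase of nuclear export, rose to 600.4 ± 134 CPM in cultured cells, against 85.2 ± 16.9 CPM in fresh cells (2.93 ± 0.32; adjusted p = 0.000592, edgeR). Dgcr8, the partner of Drosha, rose to 48.3 ± 5.42 CPM, against 15.3 ± 2.79 CPM (1.91 ± 0.40; adjusted p = 0.00846, edgeR). Xpo5, the exporter of hairpins, rose to 85.1 ± 18.5 CPM, against 33.1 ± 8.09 CPM (1.79 ± 0.32; adjusted p = 0.00472, edgeR). Tnrc6b, a scaffold of the silencing complex, fell to 50.8 ± 34.6 CPM, against 348 ± 43.5 CPM (-2.83 ± 0.47; adjusted p = 0.00363, edgeR), and was at -3.53 without cultured replicate 2. The second gene that fell was Ago4, named after its values were seen, and the call of Dgcr8 was lost without fresh replicate 5 (adjusted p = 0.0602).

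Of 10 genes tested for the box C/D snoRNP, the particle of snoRNAs such as those in Rian, 8 rose and none fell, with a median of 2.11. As for the other lists, this is a description, since the list was chosen with earlier results known. Nop56, a core protein, rose to 759 ± 70.0 CPM in cultured cells, against 161 ± 55.4 CPM in fresh cells (2.79 ± 0.27; adjusted p = 0.000312, edgeR). The assembly factor gene Znhit6 rose to 144 ± 49.4 CPM, against 18.8 ± 7.19 CPM (3.19 ± 0.54; adjusted p = 0.00406, edgeR), and was at 3.99 without fresh replicate 5. Ruvbl2, an ATPase of the same assembly, rose to 107 ± 20.1 CPM, against 18.9 ± 4.99 CPM (2.55 ± 0.41; adjusted p = 0.00331, edgeR). Nufip1, another assembly factor gene, rose to 52.8 ± 30.9 CPM, against 9.71 ± 3.15 CPM (2.66 ± 0.68; adjusted p = 0.0202, edgeR), a call lost without fresh replicate 4 (0.0574) or 5 (0.143) and on run 2 alone (0.0650).

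Of 23 tested imprinted genes of other loci, 10 fell, 1 rose and 12 were not called, beside 18.0% and 8.9% of all tested genes, and their median log2 fold change was -1.87. Peg3, a paternally expressed zinc finger gene, fell to 188 ± 50.3 CPM in cultured cells, against 3565 ± 1159 CPM in fresh cells (-4.67 ± 0.28; adjusted p = 4.8e-05, edgeR). Its neighbour Zim1 fell to 15.3 ± 13.1 CPM, against 189 ± 62.4 CPM (-4.06 ± 0.61; adjusted p = 0.00234, edgeR), and was at -4.96 without cultured replicate 1. Airn, the noncoding RNA that silences Igf2r, fell to 11.4 ± 5.42 CPM, against 133 ± 25.2 CPM (-3.79 ± 0.38; adjusted p = 0.000367, edgeR). Dcn, a matrix proteoglycan gene that is also a fibro-adipogenic marker here, fell to 5.93 ± 2.86 CPM, against 345 ± 165 CPM (-5.54 ± 0.59; adjusted p = 0.000518, edgeR). Cdkn1c, an inhibitor of the cell cycle named after its values were seen, had no cultured count and was at least 439.8-fold lower than in run-2 fresh cells. The gene that rose was Kcnq1ot1, a noncoding RNA, at 576 ± 75.2 CPM in cultured and 258 ± 69.8 CPM in fresh cells (0.82 ± 0.23; adjusted p = 0.0270, edgeR), also named afterwards.

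Of 16 other nuclear long noncoding RNAs tested, 2 rose (4 without scaling factors), 4 fell (2 without scaling factors) and 10 were not called, with a median of -0.13 (0.29 without scaling factors). Against run-1 fresh cells 6 rose and 3 fell, with a median of 0.67. Malat1, an abundant RNA of nuclear speckles, was at 5895 ± 1202 CPM in cultured and 13520 ± 3380 CPM in fresh cells (-1.49 ± 0.27; adjusted p = 0.00488, edgeR). Neat1, the scaffold of paraspeckles, was at 455 ± 197 CPM in cultured and 1533 ± 621 CPM in fresh cells (-1.53 ± 0.47; adjusted p = 0.0411, edgeR). Xist, the RNA of the inactive X chromosome, was at 2768 ± 258 CPM in cultured and 3173 ± 1757 CPM in fresh cells (-0.88 ± 0.20; adjusted p = 0.0116, edgeR), but higher in culture against run-1 fresh cells (0.61; adjusted p = 0.0488). Snhg6, a snoRNA host RNA, was at 96.1 ± 57.4 CPM in cultured and 16.2 ± 9.90 CPM in fresh cells (1.99 ± 0.63; adjusted p = 0.0465, edgeR). The calls of Neat1 (adjusted p = 0.140) and Xist (0.148) were lost without scaling factors. Leaving out fresh replicate 4 or 5 ended the calls of Neat1 (0.0942 and 0.230), Xist (0.0857 and 0.0597) and Snhg6 (0.231 and 0.0724). Neat1 was also lost without fresh replicate 2 (0.0649) or cultured replicate 1 (0.0677) or 2 (0.0872). Snhg6 was lost with RLE size factors (0.0523), on run 2 alone (0.116), and without fresh replicates 1, 2 or 3 (0.0742, 0.0582 and 0.0652) or cultured replicates 1 or 3 (0.0658 and 0.0700).

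**Figure D4:**
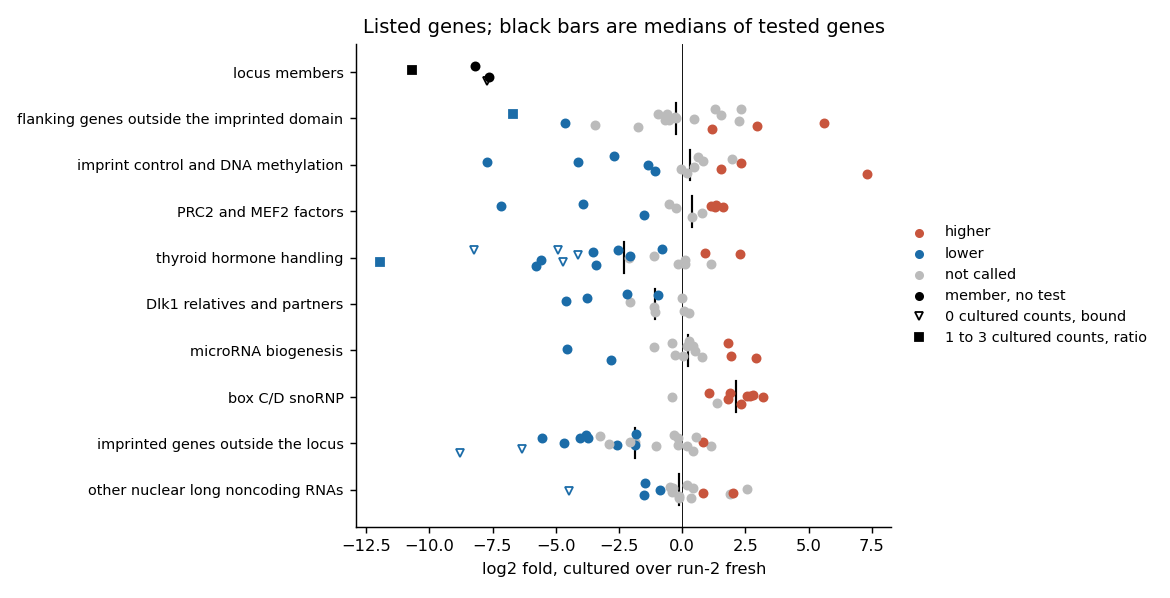
Log2 fold in cultured over run-2 fresh cells of the tested genes of each list, with the locus members in the top line. Red marks rose, blue marks fell and grey marks did not pass the test, black marks are members, and black bars are medians of the tested genes. Open triangles are bounds for genes with 0 cultured counts and squares are ratios for 1 to 3 cultured counts. The snoRNP list has a median of 2.11, while the members lie below -7.

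Several markers of other cell types fell in culture, as 18.0% of all tested genes did. Those at 0 in cultured libraries could only be lower, so nothing is read from their calls. Of pericyte and smooth muscle markers 7 of 9 fell, and Abcc9 and Kcnj8 had no cultured count. All 6 Schwann and glia markers fell, with Sox10 and S100b at 0 in cultured libraries, and 6 of 8 fibro-adipogenic markers fell, with Ly6a at 0. Of tenocyte markers 3 of 5 fell, with Tnmd at 0, and of endothelial markers 2 of 7 tested, with Kdr and Egfl7 at 0. Blood markers gave 3 lower of 7, with Adgre1, Csf1r, Lyz2 and Cd79a at 0, and muscle fibre markers 3 lower of 8, with Myh2 at 0 and summed levels that overlapped between the groups. The part of other cells in the levels of the locus was not tested.

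Fresh replicate 1 held the least of several of these markers, with pericyte markers at 804 CPM against 1965 to 3180 CPM in the other fresh libraries and Schwann markers at 441 against 977 to 2015 CPM. In the same library Meg3 was at 578 CPM and Dlk1 at 4.37 CPM, and among fresh libraries only fresh replicate 3 was lower for each. Rian and Mirg were at their lowest fresh values, 205 and 18.97 CPM. Set against that library alone, a comparison chosen after seeing the data, the log2 fold change of cultured cells was -7.05 for Meg3 and -6.78 for Rian. The ratio for Mirg was then 1075 and Dlk1 was at least 82.6-fold lower. In this setting 1 library stands for all fresh cells, and the members carry no test in it, as elsewhere.

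**Figure D5:**
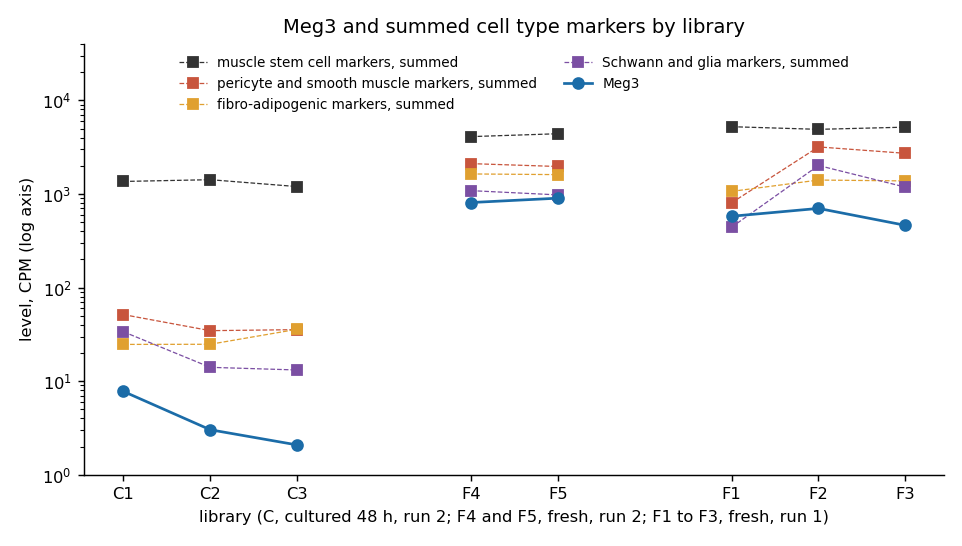
Meg3 and the summed markers of 4 cell types in each library, in CPM on a log axis, with cultured libraries left and fresh libraries right of them. Of the 4 marker sums, that of muscle stem cells differs least between the groups.

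For each tested member, the 5 genes of at least 10 CPM whose profile was most like it were found among 7936 candidates, by the root mean square difference of centred log2 CPM over the 8 libraries. All 8 share the contrast of cultured and fresh cells and its runs, so likeness includes that contrast and is a description. Nearest to Meg3 were Prickle2 (0.32), Fgfr4 (0.34), Ankrd29 (0.36), Sepp1 (0.45) and Medag (0.48). Nearest to Mirg were Ccdc80 (0.21), Fxyd1 (0.28), Gbp7 (0.29), Ebf2 (0.29) and Nwd1 (0.32). Nearest to Dlk1 were Apoe (0.42), Hspa1a (0.44), Dmd (0.46), Coch (0.50) and Adamts12 (0.51), and nearest to Rian were Ogn (0.64), Prkcq (0.66), Abca8b (0.71), Aldh1a1 (0.74) and Chodl (0.75). Coch is the one of these 20 genes on chromosome 12. Between members the measure ran from 0.73 for Meg3 and Mirg to 1.61 for Dlk1 and Rian. The prior count of 2 in the log2 CPM shrinks the change of genes with few or no cultured counts, so these distances depend on it. Dlk1, with no cultured count and a bound of 212-fold, thus stood beside genes with fitted log2 fold changes of -6.38 to -5.8.

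For scale, Fgfr4, a receptor of muscle stem cells, was at 3.18 ± 1.73 CPM in cultured and 436 ± 95.5 CPM in fresh cells. Prickle2, a planar polarity gene, was at 0.0350 ± 0.0607 CPM in cultured and 26.1 ± 5.95 CPM in fresh cells. Chodl, a membrane protein gene, was at 2.08 ± 1.02 CPM in cultured and 884 ± 434 CPM in fresh cells.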

How the data were processed

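The deposited data were 1 table of expected counts with a column for each library, made by the authors, in which 50.1% of values above 0 were not whole. Per the submitters' processing notes, reads were processed with STAR and RSEM on mm10. Versions, annotation and strand setting are not given in the sources used. RSEM divides reads shared between genes, so overlapping lines are uncertain. Per the labels' protocols, RNA was amplified with NuGEN Ovation, and intervals and floors cover counting error only.

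From the 45798 lines, 92 spike-in lines were dropped. Lines with no identifier numbered 2423 and held 0.385 to 0.568% of counts per library. Of columns with per-sample values, 0 were left unused. Identifiers matched GENCODE M21 for 98.8%, which gave coordinates. Counts were rounded, filtered with filterByExpr (19054 genes kept, 0.0984 to 0.666% of counts left out) and scaled by TMM (0.792 to 1.18). The quasi-likelihood test of edgeR 4.0.16 (R 4.3.3) had run and culture as terms, 5 residual degrees of freedom and Benjamini-Hochberg adjustment at 0.05, so its culture term compares cultured with run-2 fresh libraries. It was also run on simulated data with known changes, with the same spread for every gene and no run effect. That setting is simpler than these libraries and does not check the calls made here. Floors are 3 counts over a group, and intervals are 95%.

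The members and lists were chosen with earlier results of these data known. Genes named were the members, domain lines of at least 1 CPM, Rtl1 and Begain. From each list came the called genes that moved farthest among those of at least 10 CPM, 4 at most, with the 2 most abundant as a fallback for lists with fewer than 2 calls. Likeness used log2 CPM with a prior count of 2. Alternatives were other scaling (RLE, none, totals without mitochondrial genes), no filter, DESeq2 1.42.0, no run term, run 2 alone, run-1 fresh cells alone, a replicate block, each library left out and, chosen after seeing the data, fresh replicate 1 alone. No 2 libraries agreed within sampling noise. Sequences are from RefSeq (GRCm38.p6) and GENCODE M21.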

Additional observations from a re-analysis of the deposited data

Results flagged for a closer look

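Begain had 13.5 CPM in fresh replicate 5, far from the other 4 fresh libraries at 0.441 to 2.73 CPM. The gap to the nearest of them was 0.825 of the whole range. The screen covered 11 genes of the locus and its domain, and chance passes the threshold used in about 1 in 20 groups. No cultured library had a count of Begain.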

How the results depend on the processing

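Meg3, Rian, Mirg and Dlk1 were lower in cultured cells under every setting run. With each library left out in turn, Meg3 ranged from -8.32 to -7.32 on the log2 scale, the ratio or bound of Mirg from 364 to 1727 and the bound of Dlk1 from 137 to 279.8. Against fresh replicate 1 alone, chosen after seeing the data, Rian was at -6.78, the ratio of Mirg was 1075 and the bound of Dlk1 82.6. Against run-1 fresh cells the Dlk1 bound was 85.7. A bound falls by construction with fewer cultured libraries, since its floor is spread over fewer counts. Between fresh runs, Mirg ranged from -0.41 to 0.10 with 1 library left out, turning positive without fresh replicate 2. Rian passed the threshold on fresh libraries alone (1.05, adjusted p = 0.0260, edgeR) and in no other setting run.

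Calls over all genes were 2786 on run 2 alone (1772 lower, 1014 higher) and 151 against fresh replicate 1 alone (93 and 58), where fewer libraries were tested. Leaving out 1 library gave 3340 to 6161 calls, 2442 to 3966 lower and 898 to 2195 higher. The run effect gave 80 genes without a filter, 799 on fresh libraries alone, 921 with DESeq2 and 1 to 117 with 1 library left out. Listed genes called higher were 14 on run 2 alone, 0 against fresh replicate 1 alone and 12 to 28 with 1 library left out, and lower ones 3 against fresh replicate 1 alone. Of the domain's lines, 0 were called against that library. Xist reversed to 0.61 against run-1 fresh cells and 0.62 against fresh replicate 1.

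Same-numbered libraries showed no clear pairing, with correlations of 0.030, 0.010 and 0.011 for their deviations from the group means. With so few libraries in each group, and different runs, this check cannot exclude a pairing. With the replicate block on run-1 fresh and cultured libraries, 2734 genes were called (1386 lower, 1348 higher), 25 listed genes were lower, the Dlk1 bound was 85.7 and Xist was at 0.61. Begain and Gm26945 (adjusted p = 0.0682 each), Rcor1, Notch2, Dgcr8, Xpo5, Nufip1 and Xist lost their calls in that fit. The causes of these changes were not tested. Below a handful of counts, depth limits what can be said of Dio3, the snoRNAs and the microRNA lines.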
